A study of Mus musculus with 4 samples.

Results

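The replication-dependent histone genes lie in the Hist1, Hist2, Hist3 and Hist4 clusters of the mouse genome. Of the 29676 gene names on the array, 50 began with Hist followed by a cluster number and the letter h, and these were read by 58 of the 39429 non-control probes. By the letters of the gene name, 6 probes read H1 genes, 16 read H2A genes, 13 read H2B genes, 8 read H3 genes and 15 read H4 genes. The cultures were astrocyte-enriched cultures (AECs), that is, mixed glial cultures of newborn ICR mouse cortex, each made from several pups, treated with PLX3397 to remove microglia, whose survival depends on the receptor (CSF1R) that this compound blocks. Both groups had received it. They differed in the treatment: 2 samples were untreated, and 2 were kept for 15 h under oxygen-glucose deprivation (OGD), a model of ischemia in which cells are held in glucose-free medium under hypoxia. Each sample was labeled with Cy3 and hybridized to 1 array. By the methods of the study, independent cultures of different pups were used to seed the wells, but the labels do not tie an array to a culture, so the p-values given here measure the spread between these samples, which may be partly technical.

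Core histones H2A, H2B, H3 and H4 form the octamer around which DNA is wrapped, and the linker histone H1 binds DNA where it enters and leaves that particle. Most genes of the Hist clusters are single-exon genes transcribed in S phase, and their mRNAs end in a conserved stem-loop, bound by the stem-loop binding protein SLBP, in place of a poly(A) tail. Labeling with the kit used here starts at poly(A), so the signal of a member is that of transcripts which carry a tail or a run of A, and not of all its mRNA. Some of these genes are also known to give polyadenylated transcripts, which read past the stem-loop to a downstream poly(A) signal.

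The stem-loop was itself read by some probes, shown here because the probes with the largest increases were among them. A stem of 6 bases starting with GG and ending with CC around a loop of 4 bases was present in 6 of the 58 member probes and in 31 of all 39429 probes. The letters GGCNCTTTTCAGNGCC, with N for any base, are those shared by the 5 stem-loops with the same loop, and they were present in 0 probes outside the members. Windows of 30 bases, taken from the probe sequences in the files and written 5′ to 3′ with the 16 bases of the stem-loop in capitals, were as follows.
*Hist1h3a*: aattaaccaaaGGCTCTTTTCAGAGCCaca
*Hist1h3i*: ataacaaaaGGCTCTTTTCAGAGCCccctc
*Hist1h3g*: cactttaaaGGCTCTTCTTAGAGCCaccca
*Hist1h4m*: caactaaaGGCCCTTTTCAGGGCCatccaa
*Hist2h2aa1*: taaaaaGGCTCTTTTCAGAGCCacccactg
*Hist2h2bb* (A_55_P2036883): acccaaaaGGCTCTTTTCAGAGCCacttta
The *Hist1h3g* probe differed from the others in its loop, and the *Hist1h4m* probe in its stem.

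A further 3 member probes held the letters AATAAA, which can serve as a poly(A) signal, as did 4965 of all 39429 probes (12.6%). The variant ATTAAA was present in 2 member probes and in 1796 probes in all (4.56%). The windows around AATAAA, in capitals, are given because all 3 of these probes were lower after OGD, beside 27.1% of all probes tested.
*Hist2h2bb* (A_51_P361620): gttgtcagtttgAATAAAgacagagaaact
*Hist1h2ag*: aaggccaaggggaAATAAAaccctttatac
*Hist3h2ba*: gttcataatggtattAATAAAtttggttca
In *Hist1h2ag*, read in the frame of the *Hist1h2an* probe with which it shares a run of 32 bases just upstream, the letters cover the end of the last codon, the stop codon TAA and the next base, so that they do not lie downstream of the stem-loop. In the files, the *Hist1h2ag* probe was placed on a stretch of 59681 bases for its 60 bases.

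Within a class the coding sequences of these genes are nearly identical, and a probe can read several of them. The files assigned 16 of the 58 probes to the transcripts of 2 or more RefSeq genes. The following 4 H2A probes began at the same codon and ended with the stop codon, with the bases that were not shared by all 4 in capitals.
*Hist1h2af*: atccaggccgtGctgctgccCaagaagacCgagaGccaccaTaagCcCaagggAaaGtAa
*Hist1h2ak* (A_55_P2084652): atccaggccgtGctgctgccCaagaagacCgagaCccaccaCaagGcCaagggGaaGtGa
*Hist1h2an*: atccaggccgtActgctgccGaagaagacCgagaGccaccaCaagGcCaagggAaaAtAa
*Hist2h2aa2*: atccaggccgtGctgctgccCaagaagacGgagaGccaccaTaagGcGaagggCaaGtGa
They differed from each other at 5 to 8 of 60 bases, and a value for 1 of these genes is therefore that of a group of H2A genes. In all, 8 of the 16 H2A probes shared a run of at least 20 bases with another H2A probe. Such a run was also shared by 5 H2A probes, those of *Hist1h2af*, *Hist1h2ah*, *Hist1h2ak* (A_55_P2084652), *Hist2h2aa2* and *Hist2h2ac*, with the bright probe of *H2afj*, an H2A gene outside the clusters, a probe that was higher after OGD (log2 fold change 0.66 ± 0.08, adjusted p = 0.0045). The other tested probe of *H2afj*, which shared no such run, was lower (−1.38 ± 0.20, adjusted p = 0.00683). No 2 probes of H1 or of H2B did so, and the longest run shared by 2 probes was 9 bases in H1 and 8 bases in H2B.

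A probe was tested if it was well above background, by the mark of the scanner software, on both arrays of at least 1 group, which 28258 probes were. Of the 58 member probes, 55 were tested, and all 55 were well above background on all 4 arrays. The exceptions were the *Hist2h2ab* probe, with a processed signal of 10.2 and 6.05 in untreated AECs and 3.38 and 1.70 after OGD, the probe of the pseudogene *Hist3h2bb-ps*, and the downstream probe of *Hist4h4*. Over all probes, the share well above background was 73.1% and 72.4% in untreated AECs and 65.4% and 63.7% after OGD.

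The brightness of the arrays differed between the groups. The 75th percentile of the signal was 2135 and 2164 for untreated AECs, compared with 886.9 and 776.4 under OGD, while 9 spiked-in control probes differed by −0.08 on the log2 scale on average (from −0.75 to 0.28). Values were divided by the 75th percentile of their array, as in the methods of the study, so that "higher" and "lower" here mean relative to that level. On this scale the median change of all probes tested was 0.18, and with scaling on the spiked-in probes it was −1.11. In 50 of the 55 member probes the processed signal itself was lower on both arrays after OGD than on both untreated arrays, and it was higher on both in 4.

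Markers of the labeled cell type were bright, and signal was also read for those of other cells. All 8 astrocyte markers were tested. By the brightest probe of each gene, 5 were higher and 0 lower, beside 37.1% and 27.8% of all 21064 genes tested. For *Aldh1l1*, which was counted as higher at 0.44, the other tested probe was at −2.50. The summed signal of the astrocyte markers, in units of the 75th percentile, was 152 and 131 in untreated AECs and 210 and 213 after OGD. The microglial sum was 1.78 and 1.48 in untreated AECs and 1.89 and 1.65 after OGD, with 2 of 6 markers higher and 1 lower, and *Aif1*, which encodes Iba-1, had a processed signal between 40.7 and 55.6 on the 4 arrays. The oligodendrocyte sum was 5.43 and 5.57 against 5.44 and 5.51, and the oligodendrocyte transcription factor *Olig2* fell by 2.50 on the log2 scale. Among markers of neurons 2 of 5 were higher and 2 lower, of NG2 glia 1 of 2 was higher and 1 lower, and of meningeal fibroblasts 0 of 4 were called. No marker was at 0, but *Cx3cr1* and *Rbfox3* were well above background on only 2 of the 4 arrays, and *Sox10* on 3. Of the microglial markers *Itgam* had the largest signal, at 3328 and 2726 in untreated AECs. The part of the cell mixture in the changes below was not tested. In bulk RNA such as this, fewer cells of a type and less of an RNA per cell cannot be told apart.

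After OGD, 16 of the 55 histone probes were higher and 18 were lower (adjusted p under 0.05, limma), and 21 were not called. Among all 28258 probes tested, 37.9% were higher and 27.1% lower, 65.0% in all. Past 2-fold, 5 histone probes were higher and 7 lower, beside 13.9% and 14.8% of all probes. With scaling on the spiked-in probes, 3 were higher and 49 lower, beside 4.47% and 81.9% of all probes. With quantile normalization 12 were higher and 27 lower, beside 30.7% and 29.7%. The median log2 fold change of the 55 probes was 0.15, or −0.0292 relative to that of all probes. The relative value was −0.45 with another background correction and −0.32 with quantile normalization. Without untreated replicate 1 the counts were 9 higher and 10 lower, beside 23.8% and 17.1% of all probes, and without untreated replicate 2 they were 7 and 10, beside 20.8% and 17.2%. The members thus moved in both directions, and the classes and single genes are described below.

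**Figure D1:**
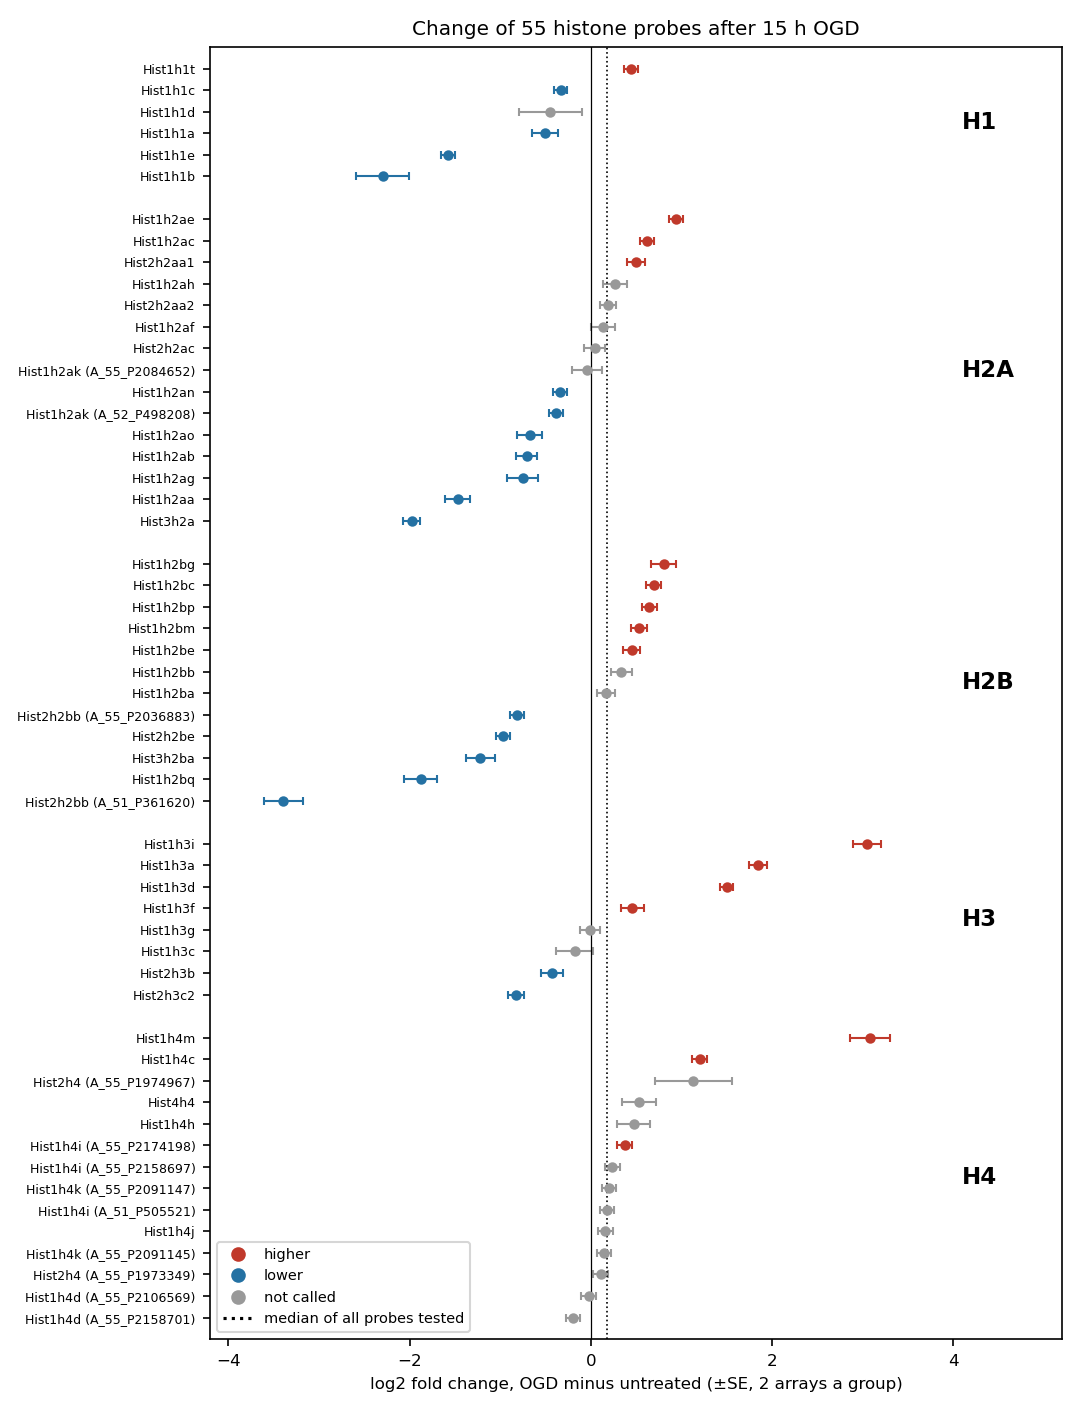
Log2 fold change (OGD minus untreated, x axis) of each of the 55 tested histone probes with its standard error, grouped by class and ordered within it, in red if higher, blue if lower and gray if not called. The dotted line marks the median of all probes tested (0.18). H4 has 0 probes called lower with the fit and scaling used here, against 1 with an intensity trend in the fit, 4 with quantile normalization and 11 with spike-in scaling.

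Among the linker histones, 4 of 6 H1 probes were lower and 1 was higher after OGD, beside 27.1% and 37.9% of all probes, with a median log2 fold change of −0.47. The number lower was 2 without untreated replicate 1 or 2 (17.1% and 17.2% of all probes), with the test named in the methods (18.8%), with the replicate block (25.8%) and with no filter (17.8%). Relative to the median of all probes, the H1 median was −0.65, and it lay between −0.89 and −0.62 under all 17 settings run. *Hist1h1b*, which encodes the linker histone H1.5 of dividing cells, had a processed signal of 967 and 960 in untreated AECs and 106 and 54.1 after OGD. Both arrays after OGD were below both untreated arrays, and they also differed between themselves. Its log2 fold change was −2.30 ± 0.29 (SE, n = 2 and 2, adjusted p = 0.00495). The call was lost with the test named in the methods (adjusted p = 0.0572). *Hist1h1e*, which encodes the abundant linker histone H1.4, was singled out after its values were seen. Its signal was 2158 and 2283 in untreated AECs and 313 and 264 after OGD. The groups were well apart, with a log2 fold change of −1.58 ± 0.08 (adjusted p = 0.000951).

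*Hist1h1c*, which encodes H1.2 and is known to give polyadenylated transcripts, changed less. Its processed signal was 25341 and 26264 in untreated AECs and 8413 and 7429 after OGD. After scaling it was lower by a log2 fold change of −0.33 ± 0.07 (adjusted p = 0.0222), and the call was lost without untreated replicate 1 or 2 (adjusted p = 0.133 and 0.161), with median scaling (0.0574), with no filter (0.0506) and with the replicate block (0.0562). *Hist1h1t*, the testis-specific linker histone, was dim, with 21.8 and 23.3 in untreated AECs and 12.5 and 11.1 after OGD. It was the one H1 probe called higher, at 0.44 ± 0.08 (adjusted p = 0.0119), and it was lower at −0.85 with spike-in scaling. The call was lost without untreated replicate 1 or 2 (adjusted p = 0.103 and 0.0801), with an intensity trend (0.106) and with quantile normalization (0.0621). The *Hist1h1a* probe was lower, at −0.50, and the *Hist1h1d* probe was not called, at −0.44. Both turned positive with another background correction (0.24 and 0.67).

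The sites of both strongly reduced H1 probes lay in coding sequence and did not resemble each other.
*Hist1h1b* (chr13:21871923-21871982, mm9, minus strand): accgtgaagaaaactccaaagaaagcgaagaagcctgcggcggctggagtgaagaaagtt
*Hist1h1e* (chr13:23713707-23713766, mm9, minus strand, stop codon in capitals): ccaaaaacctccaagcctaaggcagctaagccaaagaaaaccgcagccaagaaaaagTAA
The files assigned each of these 2 probes to 1 RefSeq gene.

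Of the 15 tested H2A probes, 3 were higher and 7 lower after OGD, beside 37.9% and 27.1% of all probes, and the median log2 fold change was −0.05. Without untreated replicate 1 or 2 the counts were 1 higher and 2 lower (all probes 23.8% and 17.1%, or 20.8% and 17.2%). They were 2 and 12 with quantile normalization (all probes 30.7% and 29.7%) and 0 and 15 with spike-in scaling (all probes 4.47% and 81.9%). This median was 0.14 without OGD replicate 2 and −0.25 without OGD replicate 1, so that its sign rested on 1 array. The decrease was largest for *Hist3h2a*, the H2A gene of the small Hist3 cluster, with a processed signal of 14455 and 14219 in untreated AECs and 1591 and 1242 after OGD. The groups did not overlap, and the log2 fold change was −1.98 ± 0.10 (adjusted p = 0.000928). *Hist1h2aa*, which encodes a testis-specific H2A, was lower as well, with 215 and 174 against 29.5 and 24.6 and a log2 fold change of −1.47 ± 0.14 (adjusted p = 0.00263). With another background correction it was −0.37.

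The increases among H2A probes were smaller. *Hist1h2ae*, a core H2A gene, had a processed signal of 90.3 and 92.0 in untreated AECs and 72.4 and 63.1 after OGD. This loss was smaller than that of the 75th percentile, and its log2 fold change was 0.94 ± 0.07 (adjusted p = 0.00182) but −0.35 with spike-in scaling. *Hist2h2aa1*, the brightest H2A probe by its mean over the 4 scaled arrays though not on the untreated arrays alone, and one of those holding the stem-loop, had 48809 and 43747 in untreated AECs and 27448 and 23182 after OGD. Its log2 fold change was 0.50 ± 0.10 (adjusted p = 0.016), against −0.23 with quantile normalization and −0.79 with spike-in scaling, and without untreated replicate 1 or 2 the adjusted p was 0.0554 and 0.107. With the test named in the methods it was 0.0638. The 4 coding probes printed above, *Hist1h2af*, *Hist1h2ak*, *Hist1h2an* and *Hist2h2aa2*, had log2 fold changes of 0.13, −0.05, −0.34 and 0.19, of which *Hist1h2an* was called lower. The other 3 of these near-identical probes were not called.

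In H2B, 5 of 12 tested probes were higher and 5 lower, beside 37.9% and 27.1% of all probes, with a median log2 fold change of 0.25. The number higher was 2 without untreated replicate 1 (23.8% of all probes) and 1 without untreated replicate 2 (20.8%). With spike-in scaling 0 were higher and 12 lower, beside 4.47% and 81.9%. The 5 probes called higher read the Hist1 cluster and had changes of 0.45 to 0.81, and 1 probe of that cluster was lower. This probe, of *Hist1h2bq*, was singled out after its values were seen, and the files assigned it to 2 RefSeq genes, with the symbols *H2bc23* and *H4bc24*. Its processed signal was 339 and 336 in untreated AECs and 32.4 and 38.8 after OGD. The groups were far apart, with a log2 fold change of −1.88 ± 0.18 (adjusted p = 0.00263), or −0.62 with another background correction. *Hist1h2bg*, a core H2B gene, had a processed signal of 366 and 358 in untreated AECs and 234 and 256 after OGD. Its log2 fold change was 0.81 ± 0.14 (adjusted p = 0.0109), against −0.48 with spike-in scaling, and the call was lost without untreated replicate 1 or 2 (adjusted p = 0.0624 and 0.0727) and with the test named in the methods (adjusted p = 0.0719). *Hist1h2bc*, whose probe lies past the stem-loop and which is known to give polyadenylated transcripts, had 46572 and 43885 against 30498 and 26252. Its log2 fold change was 0.70 ± 0.08 (adjusted p = 0.00433), against −0.04 with quantile normalization and −0.59 with spike-in scaling. *Hist1h2ba*, known as the testis-specific H2B, was nevertheless bright, with 9795 and 9683 in untreated AECs and 4797 and 3699 after OGD. What this probe reads in these cultures was not tested. It was not called at 0.16 ± 0.10 (adjusted p = 0.219) and was at −1.12 with spike-in scaling.

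The only member probe past the 10-fold limit of the methods was an H2B probe, beside 0.810% of all probes higher and 0.524% lower by that limit. It was not past the limit without untreated replicate 2 (log2 fold change −3.29), without OGD replicate 1 (−3.13) or with another background correction (−2.03). *Hist2h2bb* (A_51_P361620, chr3:96082754-96082813, mm9, plus strand) had a processed signal of 938 and 1093 in untreated AECs and 33.1 and 41.7 after OGD. Both arrays after OGD lay far below both untreated arrays, with a log2 fold change of −3.40 ± 0.22 (adjusted p = 0.00132), or 10.5-fold lower. A second probe of the same gene (A_55_P2036883), which starts 8698 bases upstream and holds the stem-loop, had 270 and 267 in untreated AECs and 62.1 and 56.1 after OGD. It was lower by a log2 fold change of −0.81 ± 0.08 (adjusted p = 0.00258), which dropped to −0.14 with another background correction, and the call was then lost (adjusted p = 0.224). Both probes fell with the scaling used here, and the difference between their changes was not tested.

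The other tested H2B genes outside the Hist1 cluster were also lower. *Hist2h2be*, with a known polyadenylated form, had a signal of 444 and 462 against 97.2 and 81.7 and a log2 fold change of −0.97 ± 0.08 (adjusted p = 0.00188). *Hist3h2ba*, the H2B gene of the Hist3 cluster, had 1625 and 1693 against 337 and 224 and a log2 fold change of −1.22 ± 0.16 (adjusted p = 0.00548), a call that was lost with the test named in the methods (adjusted p = 0.0543). Both tested genes of the Hist3 cluster thus fell.

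**Figure D2:**
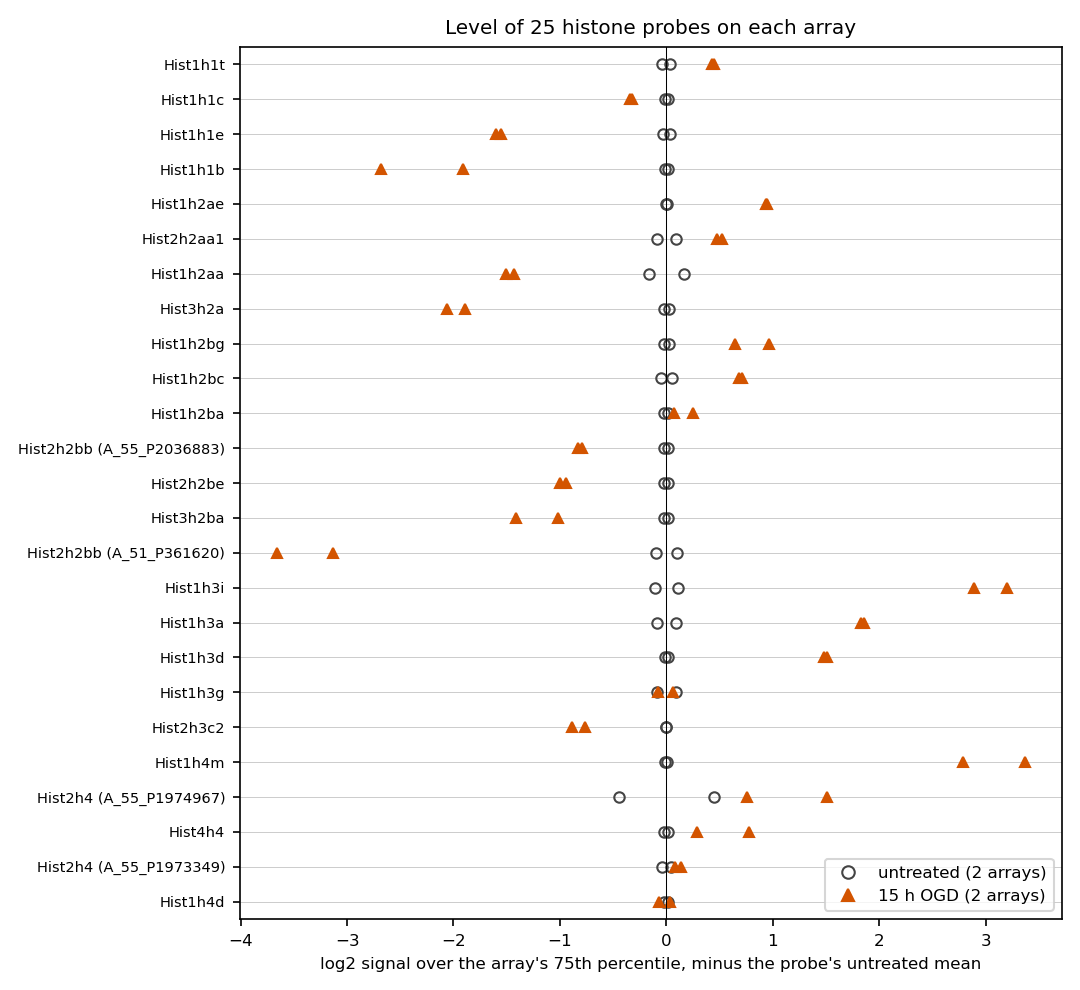
Log2 signal over the 75th percentile of each array, minus the untreated mean of the same probe (x axis), for 25 histone probes on the 2 untreated arrays (open circles) and the 2 arrays after OGD (triangles). *Hist1h3i* and *Hist1h4m* lie farthest to the right and the A_51_P361620 probe of *Hist2h2bb* farthest to the left, while the groups overlap for *Hist1h3g* and *Hist1h4d*.

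H3 held one of the largest increases. Of 8 tested H3 probes, 4 were higher and 2 lower, beside 37.9% and 27.1% of all probes, with a median log2 fold change of 0.23. The counts were 3 and 1 without untreated replicate 1 or 2 (all probes 23.8% and 17.1%, or 20.8% and 17.2%) and 2 and 5 with spike-in scaling (all probes 4.47% and 81.9%). *Hist1h3i* (chr13:21874784-21874843, mm9, minus strand), a core H3 gene, had a processed signal of 81.6 and 95.9 in untreated AECs and 271 and 295 after OGD. The signal rose on both arrays even before scaling, and the log2 fold change was 3.05 ± 0.16 (adjusted p = 0.000965), or 1.76 with spike-in scaling. *Hist1h3d* was the brightest H3 probe, and the files assigned it to 4 RefSeq genes of H3. Its signal was 25964 and 26778 in untreated AECs and 30468 and 27151 after OGD, so that it was nearly level while the arrays became dimmer. Its log2 fold change was 1.50 ± 0.08 (adjusted p = 0.000945), against 0.21 with spike-in scaling (adjusted p = 0.119).

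*Hist1h3a*, another core H3 gene, was singled out after its values were seen, as was *Hist1h3g*, because both probes hold the stem-loop. *Hist1h3a* was dim, at 35.7 and 41.2 in untreated AECs and 56.3 and 50.1 after OGD, and it was higher by 1.84 ± 0.10 (adjusted p = 0.00104) and by 0.55 with spike-in scaling. *Hist1h3g* had 125 and 111 against 50.8 and 40.4, which overlapped after scaling and was not called (−0.0048 ± 0.11, adjusted p = 0.972). *Hist2h3c2*, an H3 gene of the Hist2 cluster read far downstream, had 13079 and 13258 against 3194 and 2575. It was lower by a log2 fold change of −0.83 ± 0.09 (adjusted p = 0.0031).

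Of 14 tested H4 probes, 3 were higher, 0 were lower and 11 were not called, beside 37.9% higher and 27.1% lower among all probes, with a median log2 fold change of 0.22 and a range from −0.19 to 3.08. The number lower was 1 with an intensity trend in the fit (27.8% of all probes), another background correction (19.0%) or the 75th percentile of probes detected on all arrays (31.5%), 4 with quantile normalization (29.7%) and 11 with spike-in scaling (81.9%). The number higher was 6 with an intensity trend (39.3% of all probes) or median scaling (38.1%), 5 with the test named in the methods (26.0%) or another background correction (62.8%), and 1 with spike-in scaling (4.47%). *Hist1h4m* (chr13:21903960-21904019, mm9, plus strand), whose probe the files assigned to 2 RefSeq genes of H4, had a processed signal of 77.2 and 77.1 in untreated AECs and 220 and 288 after OGD. As for *Hist1h3i*, the signal rose on both arrays before scaling, and the log2 fold change was 3.08 ± 0.22 (adjusted p = 0.00156), or 1.79 with spike-in scaling. The increases of *Hist1h4m* and *Hist1h3i*, the largest among the members, differed by less than their standard errors, and their order turned with another background correction (2.49 and 2.52). The brightest H4 probe, *Hist1h4d* (A_55_P2106569), had 31007 and 30665 against 12106 and 11374, and after scaling the groups overlapped (−0.02 ± 0.08, adjusted p = 0.841), but it was called lower with quantile normalization (−0.58) and spike-in scaling (−1.31). *Hist4h4*, the H4 gene of the Hist4 cluster, had 5904 and 6125 against 3026 and 3716 and was not called at 0.53 ± 0.19 (adjusted p = 0.0749), a value of −0.76 with spike-in scaling and of 0.77 without OGD replicate 1 (adjusted p = 0.00754). It was also called higher with an intensity trend (adjusted p = 0.039), another background correction (0.0171) and median scaling (0.038). *Hist2h4* had a bright probe at 0.11 ± 0.08 (adjusted p = 0.297), which was −1.18 with spike-in scaling, and a dim probe at 1.13 ± 0.43 (adjusted p = 0.0834), neither of them called. The dim probe was called higher with another background correction (adjusted p = 6.41e-05) and with median scaling (0.0334). An exact permutation test of 2 against 2 arrays cannot go below p = 0.333, which is the two-sided value of *Hist1h3i*, *Hist1h4m*, *Hist1h1b*, *Hist1h1e*, *Hist3h2a* and both *Hist2h2bb* probes.

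Set by the place of the probe in the transcript, a grouping made after the values were seen and therefore not tested, the medians lay on opposite sides of 0, but with spike-in scaling both were below 0 (−0.12 with the stem-loop and −1.92 far downstream). The 6 probes that hold the stem-loop had a median log2 fold change of 1.17 (−0.81 to 3.08), with 4 higher, 1 lower and 1 not called, beside 37.9% higher and 27.1% lower among all probes. Far downstream, defined as a start past base 600 of the transcript in core histones and past base 800 in H1, 10 tested probes had a median of −0.63 (−3.40 to 0.70), with 3 higher, 6 lower and 1 not called. The other 39 probes had a median of 0.16, with 9 higher and 11 lower. Some of them started close to the limit, such as *Hist1h4i* (A_51_P505521) at base 581 and *Hist1h2bg* at base 558. Whether such probes lie past the stem-loop was not checked. Relative to the median of all probes, the median of the stem-loop probes lay between 0.48 and 1.04 and that of the far downstream probes between −1.08 and −0.72 under the 17 settings. The 3 probes holding AATAAA were all lower, from −3.40 to −0.75, beside 27.1% of all probes. They were picked out after this was seen, and the *Hist2h2bb* probe among them is also in the far downstream group. How many of the other probes with these letters were lower was not counted.

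**Figure D3:**
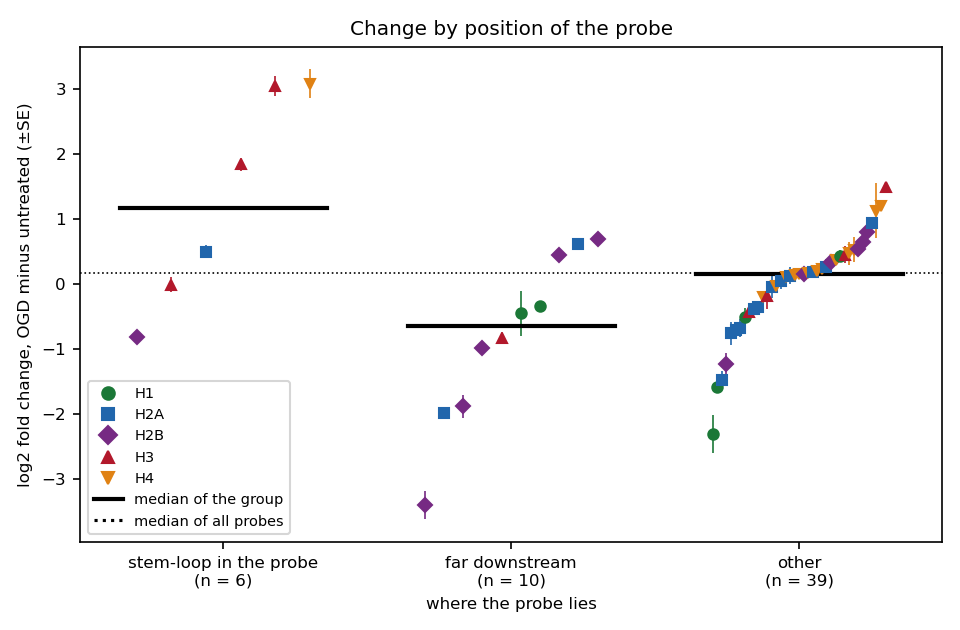
Log2 fold change (OGD minus untreated, y axis) with its standard error. Probes hold the stem-loop (n = 6), start far downstream in the transcript (n = 10) or do neither (n = 39). Each class has its symbol, and a bar marks the median. The medians are 1.17, −0.63 and 0.16, and the dotted line marks the median of all probes (0.18).

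The class medians moved with the scaling. With spike-in scaling the medians were −1.76 for H1, −1.33 for H2A, −1.04 for H2B, −1.06 for H3 and −1.07 for H4. With quantile normalization they were −0.66, −0.59, −0.06, 0.25 and 0.21. H1 had the lowest median under both, but with another background correction H2A (−0.12) was below H1 (−0.07). Differences between the classes were not tested.

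**Figure D4:**
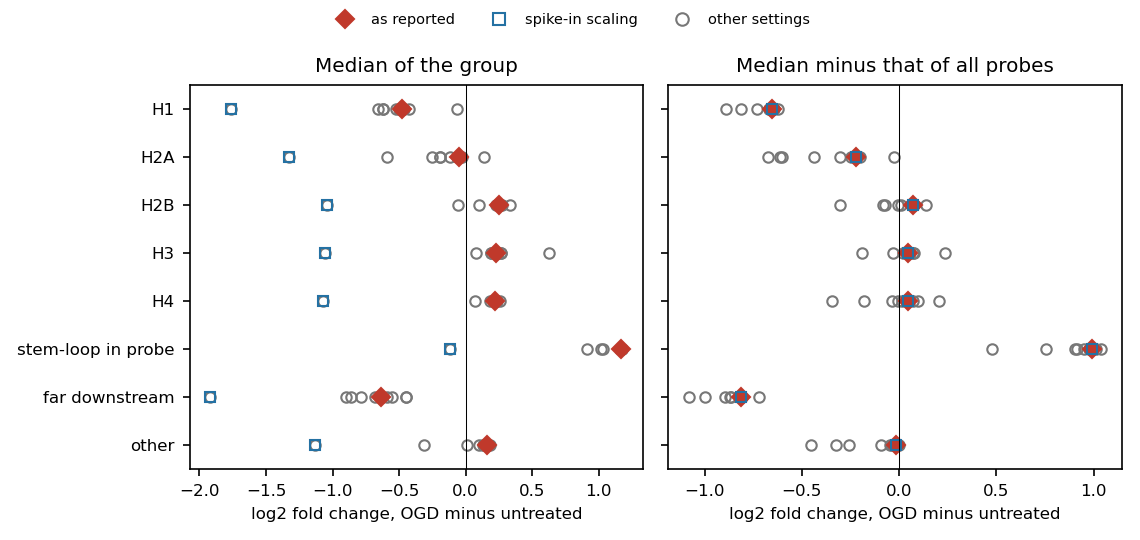
Median log2 fold change (OGD minus untreated) of each class and of each place of the probe under 17 settings, as it is (left) and minus the median of all probes under the same setting (right). Spike-in scaling (squares) moves all medians on the left below 0, whereas on the right H1 lies between −0.89 and −0.62.

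Promoters were compared for letters known from histone genes, since several H1 probes were called lower, though fewer under some settings. RefSeq promoters (GRCm38.p6, 250 bases before to 50 bases after the gene start) were matched for 44 of the 50 genes, with 45 promoters. The H1 box AAACACA, searched on both strands like the motifs below, was present in 5 of 6 H1 promoters and in 7.18% of all 32851 promoters. It was also present in 2 of 15 H2A and 2 of 10 H2B promoters, and in 0 of the H3 and H4 promoters. Among the H1 genes it was present in *Hist1h1t*, whose probe was called higher, and absent from *Hist1h1a*, whose probe was called lower. The box CCAAT was present in all 6 H1, 15 H2A, 10 H2B and 6 H3 promoters and in 2 of 8 H4 promoters, against 37.4% of all promoters. The octamer ATTTGCAT, bound by POU factors, was present in 7 of 15 H2A and 6 of 10 H2B promoters, in 0 of the H1, H3 and H4 promoters, and in 1.74% of all. The letters TATAAA were found in 26 of the 45 histone promoters and in 13.6% of all. These motifs were chosen with the results known, and a match describes the letters in the window only. The last 150 bases before the gene start are shown for *Hist1h1b* and *Hist1h1e*, the H1 genes that fell most, for *Hist1h1a*, the H1 gene without the H1 box, and for *Hist1h2bg*, with the largest increase in H2B, with the motifs in capitals. No motifs overlapped in these 4 windows.
*Hist1h1b* (chr13:21780626-21780775, minus strand): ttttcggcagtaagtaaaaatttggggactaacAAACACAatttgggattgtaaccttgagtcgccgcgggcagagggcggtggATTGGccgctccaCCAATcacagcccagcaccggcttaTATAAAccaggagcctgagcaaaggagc
*Hist1h1e* (chr13:23622559-23622708, minus strand): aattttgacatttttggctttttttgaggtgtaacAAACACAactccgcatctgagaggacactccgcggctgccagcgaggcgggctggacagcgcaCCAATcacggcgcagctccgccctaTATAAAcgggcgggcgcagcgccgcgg
*Hist1h1a* (chr13:23763518-23763667, plus strand): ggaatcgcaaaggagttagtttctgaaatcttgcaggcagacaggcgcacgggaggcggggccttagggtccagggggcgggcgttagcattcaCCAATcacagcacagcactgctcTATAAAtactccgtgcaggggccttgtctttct
*Hist1h2bg* (chr13:23571250-23571399, plus strand): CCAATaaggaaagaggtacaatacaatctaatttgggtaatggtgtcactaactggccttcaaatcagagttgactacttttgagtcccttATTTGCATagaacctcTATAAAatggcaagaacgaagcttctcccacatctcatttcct
*Hist1h1b*, *Hist1h1e* and *Hist1h1a* carried CCAAT and TATAAA near the start, and *Hist1h2bg* carried the octamer next to TATAAA.

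Histone genes outside the clusters, most of which are polyadenylated and expressed throughout the cell cycle, moved in both directions. Of 12 tested genes, 6 were higher and 3 lower, with a median log2 fold change of 0.14 beside 0.16 for all genes tested, of which 37.1% were higher and 27.8% lower. *H3f3b*, which encodes the replacement histone H3.3, had a processed signal of 40275 and 40686 in untreated AECs and 32622 and 30499 after OGD. It was higher by 1.01 ± 0.08 (adjusted p = 0.00189), and *H3f3a*, which encodes the same protein, by 0.37 ± 0.08 (adjusted p = 0.0196) at its brightest probe. The other tested probe of *H3f3a* was lower, at −0.47 ± 0.14 (adjusted p = 0.0497). *H2afz*, which encodes a replacement variant of H2A, was higher by 0.59 ± 0.09 (adjusted p = 0.00818). *H2afx*, which encodes the variant marked at DNA breaks, had 15668 and 15935 against 2539 and 2079 and was lower by a log2 fold change of −1.41 ± 0.08 (adjusted p = 0.00114). The replacement linker histone gene *H1f0* was not called (−0.08 ± 0.16, adjusted p = 0.669).

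Among 27 tested genes that make, bind or degrade histone mRNA, 10 were higher and 8 lower (37.0% and 29.6%, beside 37.1% and 27.8% of all genes), with a median of −0.09. *Slbp*, which encodes the stem-loop binding protein, had a processed signal of 1213 and 1275 in untreated AECs and 497 and 391 after OGD and was not called (−0.12 ± 0.09, adjusted p = 0.306). *Lsm11*, a subunit of the U7 particle that cleaves histone mRNA, had 163 and 158 against 203 and 120 and was higher by 1.33 ± 0.22 (adjusted p = 0.00915). *Zfp473*, which encodes a zinc finger protein of that particle, had 166 and 179 in untreated AECs at its brightest probe and was not well above background there after OGD, which makes that probe at least 9.68-fold lower (adjusted p = 0.00358). Such a bound sets its untreated mean against the lowest signal that counted as well above background. Its other tested probe was dim, at 21.1 and 14.1 in untreated AECs, and was also not well above background after OGD, which leaves no fold to give (adjusted p = 0.00524). In 21 histone chaperone genes, 9 were higher and 7 lower (42.9% and 33.3%, median 0.21). By the brightest probe of each gene, *Set*, which encodes a histone chaperone, was highest at 1.16 ± 0.10 (adjusted p = 0.00206). On the same basis *Asf1b*, the replication-coupled chaperone of H3 and H4, was lowest at −1.60 ± 0.09 (adjusted p = 0.00106). The 3 tested probes of the chaperone gene *Nasp* ranged from −2.84 to 0.20, with the brightest not called.

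S phase genes, measured because cluster histones are made in that phase, were lower in 19 of 32 tested genes and higher in 5 (59.4% and 15.6%), beside 27.8% and 37.1% of all genes, with a median log2 fold change of −0.35 beside 0.16. *Tk1*, which encodes thymidine kinase, had a processed signal of 3780 and 3506 in untreated AECs and 168 and 121 after OGD, a log2 fold change of −3.30 ± 0.14 (adjusted p = 0.000789). *Cdt1*, a factor that licenses replication origins, was higher, with 6609 and 6387 against 14924 and 12634 and a log2 fold change of 2.45 ± 0.08 (adjusted p = 0.000729). The relation between these genes and the histone probes was not tested. Among the members, 7 genes were listed for known polyadenylated transcripts, and 2 of them were higher and 4 lower, beside 37.1% and 27.8% of all genes.

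**Figure D5:**
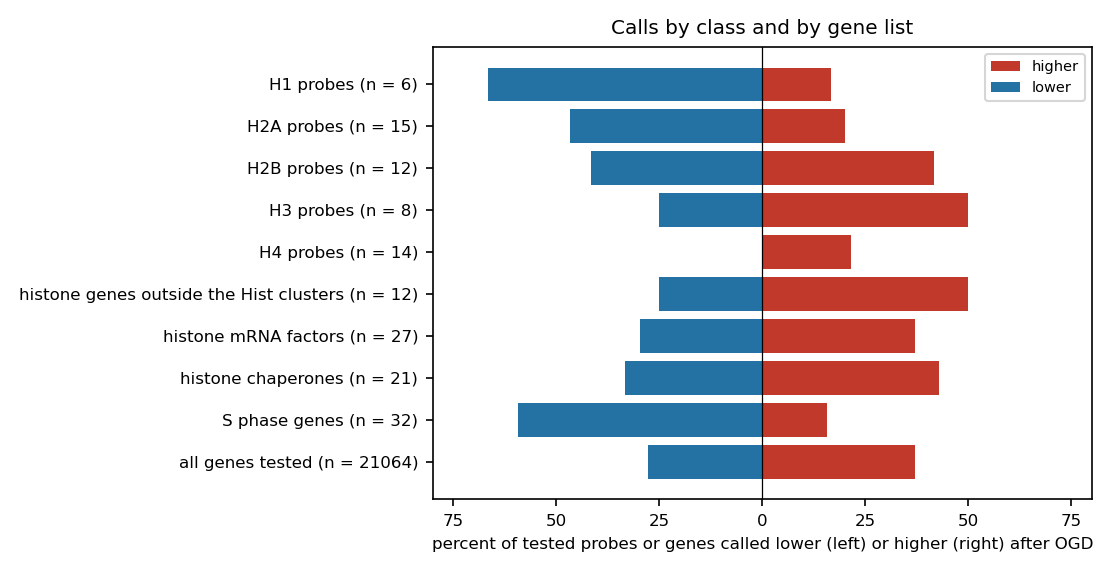
Percent of tested probes (the 5 histone classes) or genes (the lists) called higher (right, red) or lower (left, blue) after OGD. S phase genes have the largest share called lower among the lists (19 of 32). H4 probes have 0 called lower with the fit and scaling used here (1 with an intensity trend, 4 with quantile normalization, 11 with spike-in scaling).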

How the data were processed

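Total RNA of 2 untreated AEC samples and 2 after 15 h of OGD was amplified, labeled with Cy3 and hybridized by the authors to single-color mouse arrays. Each spot has a deposited intensity (processed signal). Agilent Feature Extraction (11.5.1.1 in the submitters' processing notes) had subtracted its background, and the arrays had not been scaled to each other. The deposited series table has identical values (largest difference 0). After control and outlier spots had been removed, signals were log2-transformed, spots of a probe were averaged, and each array's 75th percentile was subtracted. Probes that passed the background mark on both arrays of either group were compared with limma 3.58.1 in R 4.3.3, with Benjamini–Hochberg adjustment over all 28258 probes and a limit of 0.05. For gene lists the brightest probe of a gene was used. Other software was matplotlib 3.10.9, numpy 2.4.6, pandas 2.3.3 and Python 3.11.15. The fit was tested on simulated data.

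The members, lists and motifs were chosen with earlier results of these data known. Named were, in each class, the largest increase, the largest decrease and the brightest probe, probes past 10-fold, genes whose probes differ by over 2-fold, the Hist3 and Hist4 genes, *Hist1h1c*, *Hist1h2bc*, *Hist2h2be* and the testis forms, and from other lists the extremes and 6 fixed genes. As alternatives, arrays were scaled on their median, on the spiked-in probes, by quantile normalization, or on the 75th percentile of probes detected on all arrays. Others were the methods' t-test, an intensity trend in limma, a replicate block, normexp (offset 50, the other background correction named above), no filter or a stricter one, outlier spots kept, the series table, 1 probe or the mean per gene, and leaving out each array. Probe positions are on mm9, as the files give them. Same-numbered replicates did not deviate together (correlation −0.0574), so that no pairing was used. Arrays have no depth in reads, and their number limits the precision.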

Additional observations from a re-analysis of the deposited data

How the results depend on the processing

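The count of 16 histone probes higher was 3 with spike-in scaling (4.47% of all probes were higher under it), and the count of 18 lower was 49 with spike-in scaling (81.9% of all probes) and 11 with the methods' t-test, of which all 11 were also among the 18. With quantile normalization the counts were 12 and 27 (30.7% and 29.7% of all probes). Leaving out each array gave 7 to 18 higher and 10 to 18 lower. With the replicate number as a block, which has no support as a pairing, 15 probes were higher and 15 lower, and the call of *Hist1h1c* was lost (adjusted p = 0.0562). The median over all histone probes was −0.31 with quantile normalization, 0.00069 with the 75th percentile of probes detected on all arrays and −1.14 with spike-in scaling. In the same order, the medians were −0.66, −0.62 and −1.76 for H1, −0.59, −0.19 and −1.33 for H2A, and −0.0591, 0.10 and −1.04 for H2B, and with the latter 2 settings 0.0779 and −1.06 for H3 and 0.0733 and −1.07 for H4. With normexp they were −0.0672 for H1, 0.63 for H3 and 0.21 for H4. With no filter they were −0.19 for H2A, 0.34 for H2B and 0.24 for H4. With the brightest probe per gene they were 0.34 for H2B and 0.18 for H4, and with the mean over the probes of a gene 0.34 and 0.47. Leaving out each array gave medians of −0.62 to −0.42 for H1, −0.25 to 0.14 for H2A, 0.23 to 0.27 for H2B, 0.19 to 0.26 for H3 and 0.18 to 0.26 for H4. Spike-in scaling turned *Hist1h1t* to −0.85, *Hist1h2ae* to −0.35, *Hist2h2aa1* to −0.79, *Hist1h2ba* to −1.12, *Hist1h2bc* to −0.59, *Hist1h2bg* to −0.48, *Hist2h4* to −1.18 and *Hist4h4* to −0.76, and quantile normalization turned *Hist2h2aa1* to −0.23 and *Hist1h2bc* to −0.0416. The cause of these differences was not tested.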
